A study of Mus musculus with 2 samples.

Results

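The sites described here are 367 transcript positions, 179 at the motif GGACT, 102 at GGACC and 86 at AGACT, that were read as highly modified in both libraries of day 6 mouse retinal organoids. They were chosen by 3 values: at least 20 reads over the position in each library, a motif not ending in A, and a fraction modified of 0.65 or more in each library. The 367 sites lay on 325 transcripts of 302 named genes. They came from 3220 candidate sites at those motifs with at least 20 reads in each library, and from 5221 such sites when the fourth listed motif, GGACA, was included. Because the fraction modified selected the sites, their fractions are given as a description, without a test.

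N6-methyladenosine (m6A) is the most common internal modification of eukaryotic messenger RNA. A methyltransferase complex built around METTL3 and METTL14, with WTAP as an adaptor, places it on the adenosine of the DRACH context, where D is A, G or U, R is A or G and H is A, C or U. Reader proteins that bind the mark influence splicing, export, translation and decay of the RNA, and in neural and retinal progenitors the mark has been tied to the turnover of developmental transcripts.

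Retinal organoids are aggregates grown from pluripotent stem cells that pass through an eye-field stage. Both libraries came from organoids of the Rx:GFP line, a reporter for the eye-field gene Rax, of WT genotype, kept in AGN (not spelled out in the labels) at 0.1 µM for 6 days. Poly(A) RNA was sequenced directly, without copying to cDNA, and a modified base was read from its effect on the pore current. The libraries form 1 group with n = 2 and no second condition. No label says that they came from separate cultures, so the spread between them may be technical.

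Replicate 1 listed 26441 positions and replicate 2 listed 50099, with a median of 10 and 12 reads and a maximum of 6583 and 8985. The lowest listed coverage was 5 reads, and both libraries shared 18756 positions. The tissue label was checked against marker genes. Of 9 retinal progenitor and eye-field markers, 8 were listed in each library, while 0 of 7 pluripotent markers and 0 of 8 mesoderm and endoderm markers were listed. A gene can be listed only where a motif of the 4 is covered by 5 reads, so an unlisted gene may still be expressed.

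The 3 motifs that define the sites, and the fourth listed motif, are shown because all later comparisons are made between them. The capital A marks the adenosine that carries m6A in this context.
Motif 1: ggAct
Motif 2: ggAcc
Motif 3: agAct
Motif 4: ggAca
The deposited position was placed within the motif by matching listed positions near transcript starts to RefSeq sequence. Among 80 such positions with a RefSeq start sequence, the motif began 3 bases before the deposited end in 16 cases, against 2 for the next most common offset, so the deposited end falls on base 4 of the motif. The comparison site of Psmc6, a proteasome ATPase gene, at position 33 illustrates it and was picked after its values were seen. It lies at chr14:45329841-45329865 on the plus strand of GRCm38.p6, with the motif in capitals.
Psmc6: tctcatcatggcGGACCctagagat

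GGACT was the most frequent motif among the high sites. It held 179 of the 367 (48.8%, Wilson 95% interval 43.7 to 53.9%), against 37.3% of the 2853 other candidate sites. GGACC held 102 (27.8%, 23.5 to 32.6%), against 37.1% of the other sites after these were weighted to the same coverage. AGACT held 86 (23.4%, 19.4 to 28.0%), against 25.6%. The share of GGACT was thus higher, and that of GGACC lower, than among the comparison sites. Read the other way, 11.4% of all candidate sites met the rule. The share was 14.4% of 1242 GGACT sites, 8.78% of 1162 GGACC sites and 10.5% of 816 AGACT sites. At GGACA, 968 sites had a fraction of 0.65 or more in each library, which is 48.4% of the sites of that motif. The rule used these fractions, so the 5 shares and the motif split that follows from them describe what was selected. The intervals cover counting error only, and sites that share a gene are not independent.

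**Figure D1:**
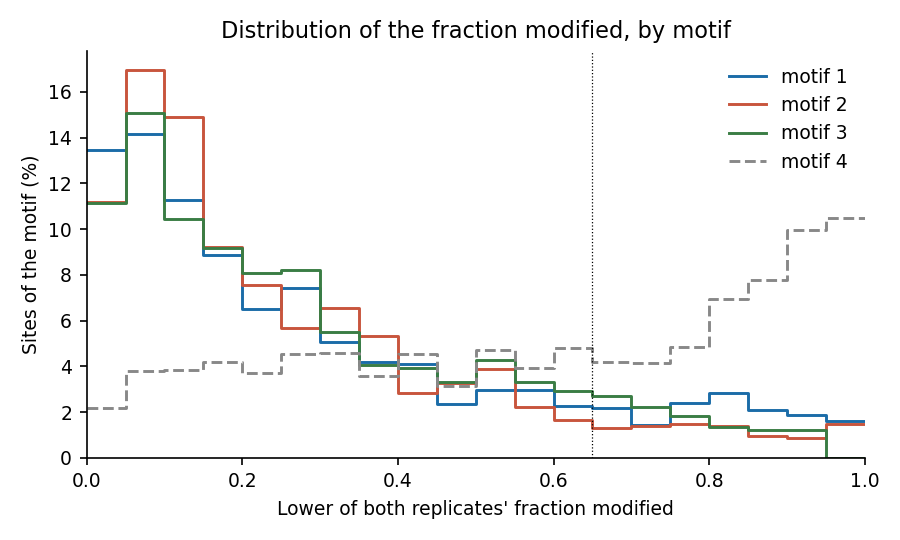
Percent of the sites of each motif (y axis) by the lower of both replicates' fraction modified (x axis, steps of 0.05), for motifs 1 (GGACT), 2 (GGACC), 3 (AGACT) and 4 (GGACA), with the 0.65 threshold dotted. Motifs 1 to 3 pile up at low fractions, while motif 4 rises towards 1 and holds 10.5% of its sites in the last step.

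The order of the motifs was looked at within classes of coverage, defined by the lower read count of both libraries. GGACT held 48.0% of the 148 high sites with 20 to 29 reads, 44% of the 100 with 30 to 49, 58.7% of the 63 with 50 to 99 and 48.2% of the 56 with 100 or more. In each class this exceeded GGACT's share of the other sites, which ran from 33.6 to 38.4%. GGACC was less steady. It held 35% of the high sites with 30 to 49 reads, close to its 35.6% of the others there, but 11 of 63 (17.5%) with 50 to 99 reads, against 38.9% of the others. Among GGACC sites of that class, 4.51% were high. Depth itself did not order the share of high sites, which was 12.4, 11, 9.52 and 12.5% from the shallowest class to the deepest.

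The median fraction modified of the high sites was 0.830 in replicate 1 and 0.833 in replicate 2, with a median of 35 and 74 reads. That of the other candidate sites was 0.208 in both libraries. By motif, the medians of high sites in replicates 1 and 2 were 0.850 and 0.849 at GGACT, 0.821 and 0.842 at GGACC and 0.792 and 0.796 at AGACT. Sites of the last motif therefore sat nearest to the threshold. A fraction of 0.9 or more in both libraries was reached by 80 sites (21.8%), namely 43 at GGACT, 27 at GGACC and 10 at AGACT. A fraction of exactly 1 in both was reached by 13 sites, 7 at GGACT and 6 at GGACC.

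The rule, which asks for 0.65 in each library, limits how far the libraries can differ at these sites. The median absolute difference was 0.0416 and the largest 0.290. At the other candidate sites, with no such limit, these were 0.054 and 0.490. Replicate 2 was the higher at 172 sites, the lower at 179 and equal at 16. The root mean square difference fell with depth, from 0.0875 at 20 to 29 reads to 0.0461 at 100 reads or more, so the spread between libraries was widest at the shallow sites. The rule needs both libraries, which removes sites that were high in 1 alone. Of 471 sites at or above 0.65 in replicate 1, 367 were so in replicate 2 (77.9%, 74.0 to 81.4%), and the 104 missed had a median of 0.559 there. Of 426 selected in replicate 2, 86.2% (82.6 to 89.1%) were so in replicate 1, and the 59 missed had a median of 0.571. Of these, 24 of the 104 and 8 of the 59 lay below 0.5, so most sites that were high in 1 library alone stayed above 0.5 in the other.

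**Figure D2:**
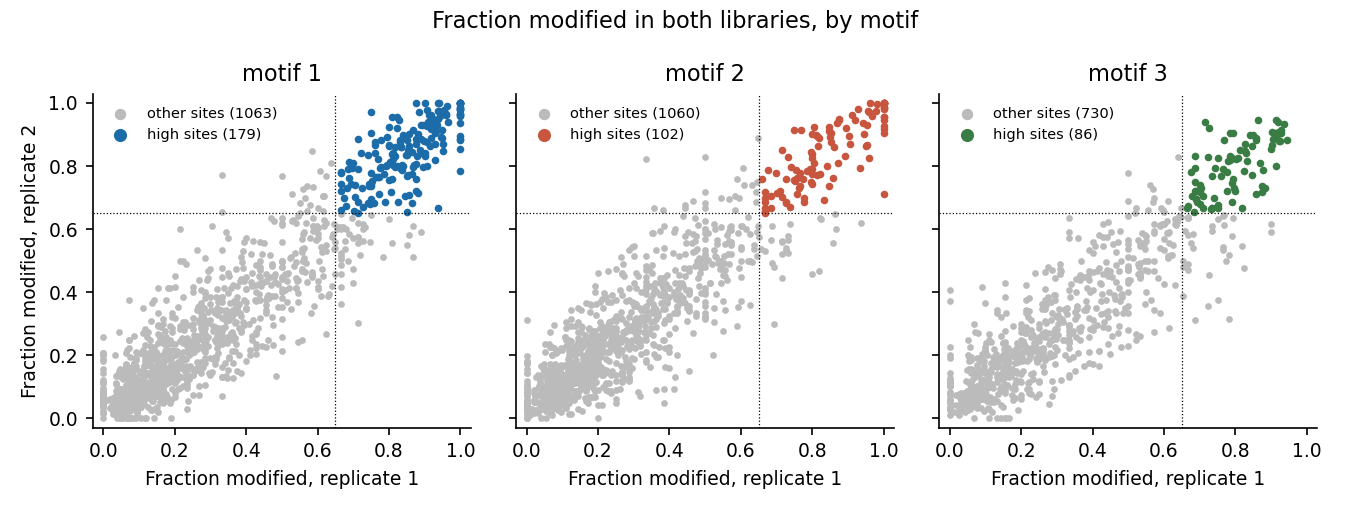
Fraction modified in replicate 1 (x axis) against replicate 2 (y axis) for the 3220 candidate sites, in a panel for each of motifs 1 (GGACT), 2 (GGACC) and 3 (AGACT), with coloured points for high sites, grey for the others and the 0.65 threshold dotted. The 179, 102 and 86 high sites fill the upper right corner, and motif 3 has none at 1 in both libraries.

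The sites nearest to the threshold show what it separates. Just inside lay 4930453N24Rik position 1055 at GGACT (0.714 and 0.65), Nap1l4 position 1310 at GGACC (0.667 and 0.652) and Sec23b position 251 at AGACT (0.684 and 0.655). Just outside lay Puf60 position 1611 at AGACT (0.649 and 0.667), Usp5 position 2621 at GGACT (0.667 and 0.649) and Drg2 position 1339 at GGACC (0.864 and 0.649). The members of both trios had 22 to 59 reads in replicate 1, and the gap across the threshold was smaller than their difference between libraries.

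At the other end, sites covered by 50 reads or more in each library were ranked by the lower of both fractions. For GGACT the top 3 were Lsm2, a subunit of the ring that binds U6 small nuclear RNA (position 699, 1.000 and 0.962, 61 and 122 reads), Ppp4c, the catalytic subunit of protein phosphatase 4 (position 1171, 0.964 and 0.991, 57 and 114 reads), and Ndufa2, a subunit of respiratory complex I (position 384, 0.961 and 0.961, 207 and 286 reads). For GGACC they were Hdac1-ps, a copy of the histone deacetylase gene Hdac1 (position 1780, 1.000 in both, 75 and 136 reads), Med30, a Mediator subunit (position 46, 1.000 and 0.983, 55 and 63 reads), and Ndufa12, also of complex I (position 571, 0.980 and 0.996, 159 and 236 reads). For AGACT they were Ctbp1, a transcriptional corepressor (position 1796, 0.918 and 0.939), Hmgn2, a nucleosome-binding protein (position 1102, 0.914 and 0.905, 702 and 1408 reads), and Eef2, the factor that moves the ribosome along its mRNA (position 2731, 0.928 and 0.903, 473 and 1065 reads). At AGACT, Bnip3l position 519 (0.903 and 0.908, 52 and 105 reads) tied with Eef2 on the lower fraction and was shallower. The top GGACT and GGACC sites lay above 0.96 in both libraries, and the top AGACT sites did not reach 0.94.

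The deepest sites are those with the highest lower coverage of both libraries, although coverage may not give the number of reads behind a fraction. H2az1, which encodes the variant histone H2A.Z, was read 2161 and 3388 times at GGACT position 670 and had 0.802 and 0.813. A further high GGACT site of H2az1 at position 998 had 0.934 and 0.930. Rplp0, a protein of the ribosomal stalk, had 0.978 and 0.976 at GGACC position 515 with 1802 and 3154 reads. Its AGACT site at position 609, covered by nearly the same reads, had 0.705 and 0.729. Both Rplp0 sites were stable between the libraries to within 0.025, while they differed from each other by about 10 times that. The others of the 3 deepest GGACC sites lay wider apart. Rps2 position 113 had 0.759 and 0.713, and Rps4x position 327 had 0.849 and 0.891.

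Most transcripts with a high site had a single one. Of the 325 transcripts, 290 had 1, 28 had 2 and 7 had 3. The high site was the only candidate on 105 transcripts, and 214 transcripts had a high site beside candidate sites that were not high. Counted by gene, 250 genes had 1 site, 41 had 2, 10 had 3 and Eif5a, a translation factor, had 4. The 4 sites of Eif5a lay on 4 transcripts, so this count is one of isoforms.

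High and lower sites often shared a transcript. On 125 transcripts a high site shared its transcript with a lower site of the same motif, giving 129 pairs of transcript and motif. In these the lower sites had a median of 0.233 and 0.222 in replicates 1 and 2, beside 0.838 and 0.837 for the high sites. Those values follow from the rule, and the pairs were picked to hold both kinds. On 6 transcripts all of several candidate sites were high, among them those of Fscn1 and Rplp0. The rule did not use the order along the RNA. In 72 of 129 pairs the median position of the high sites lay upstream of the median position of the lower ones.

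Igfbp5, which encodes a secreted binding protein of insulin-like growth factors (chr1:72897091-72914043), had high sites at AGACT position 2304 (0.690 and 0.696), GGACT position 3559 (0.667 and 0.744) and GGACT position 3873 (0.748 and 0.680). All 3 were close to the threshold. Between 0 and 0.0803 was read at its GGACT sites at positions 1522 and 5045. Fscn1, the actin-bundling protein fascin (chr5:142946098-142958940), had 3 high sites and no other candidate. They were GGACC position 1734 (0.739 and 0.671), AGACT position 1780 (0.780 and 0.815) and GGACT position 1919 (0.694 and 0.745), so each of the 3 motifs was high once within 185 nt.

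Eef2 (chr10:81012465-81018332) also had 1 high site of each motif. Besides the AGACT site given above, GGACC position 579 had 0.752 and 0.754 and GGACT position 2852 had 0.742 and 0.681. A further GGACC site at position 1547 had 0.233 and 0.305. Chtf8, a subunit of an alternative clamp loader for DNA replication (chr8:107610495-107620233), had 0.684 and 0.667 at GGACC position 837, 0.800 and 0.902 at GGACC position 1086 and 0.828 and 0.944 at GGACT position 1470. A GGACC motif 6 nt after the first of these had 0.500 and 0.357. Aars, alanyl-tRNA synthetase (chr8:111759776-111784296), had its 3 high sites far along the transcript, at GGACC position 5053 (0.813 and 0.897), AGACT position 5160 (0.790 and 0.688) and GGACC position 5569 (0.786 in both). Their coverage was 21 to 24 reads in replicate 1. All gene intervals here are printed as deposited, and the tables name no build for them. Of 298 genes matched to RefSeq by symbol and chromosome, 282 have a deposited interval that does not overlap the RefSeq one in GRCm38.p6, so these intervals are not in that build and cannot be set beside the Psmc6 coordinates.

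Motifs that adjoin or overlap allow neighbouring adenosines on the same reads to be compared, and the runs of listed motifs are shown for that reason. Capitals mark the motifs of high sites and lower case the adjoining motif that was not in the set.
Ppp2r2a: GGACTGGACTGGACT
Cops8: GGACTggact
Tor1aip2: agactGGACT
Chrac1: GGACTggaca
Armc10: ggacAGACT
Ppp2r2a, a regulatory subunit of protein phosphatase 2A (chr14:67251505-67309893), carried a triple GGACT repeat from position 1975 to 1985, and all 3 copies were high, with 38 and 61 reads over each. The first copy had 0.790 and 0.686, the middle copy 0.931 and 0.911 and the last copy 0.864 and 0.775. The middle copy was the highest in each library. In Cops8, a COP9 signalosome subunit, the first of a pair of GGACT copies was high (0.750 and 0.697) and the second was not (0.333 and 0.245). In Tor1aip2 the GGACT had 0.917 and 0.889, and the AGACT directly before it 0.364 and 0.278. The GGACA that adjoins the high sites of Chrac1 and Armc10 had a high fraction as well. In Chrac1 it read 0.800 and 0.926 beside 0.762 and 0.840 at GGACT, and in Armc10 0.958 and 0.956 beside 0.905 and 0.887 at AGACT. How far a motif influences the reading of the adjoining one was not tested.

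Across the set, 44 high sites (12%) had another site listed in either library within 20 nt, against 9.89% of the comparison sites weighted to the same coverage classes. Within 10 nt the shares were 6.54% and 4.0%, and within 50 nt they were 27.5% and 25.6%. With 1 transcript per gene, the shares within 20 nt were 11.1% of high sites and 10.1% of comparison sites. The order was not the same throughout: at AGACT the share within 20 nt was 8.14% of high sites against 9.17% of comparison sites, and over all motifs at 50 reads it was 6.72% against 6.99%. The neighbour within 20 nt was GGACA for 8 of 44 high sites (18.2%) and for 95 of 281 other sites (33.8%). It was GGACT for 16 of 44 (36.4%) and for 76 of 281 (27.0%). The count of 44 limits the precision of these shares, and the runs shown above are among the 44. So are sites of Eif5a and Psmd8 that recur on several isoforms.

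GGACA was not used by the rule and gives a reading from other bases of the same RNA. Of the high sites, 202 shared their transcript with at least 1 GGACA site of 20 or more reads in each library, and for each site the median over those GGACA sites was taken. The median over high sites was 0.620 in replicate 1 and 0.628 in replicate 2 (0.624 ± 0.00557, SD, n = 2). Over 1675 comparison sites, weighted to the same coverage, it was 0.667 and 0.640 (0.653 ± 0.0189). Taken over the 3 motifs, the GGACA median was thus lower beside high sites than beside comparison sites in each library, by less than 0.05. By motif the direction was mixed. For GGACC high sites the values were 0.594 and 0.557, against 0.688 and 0.674, while for AGACT they were 0.699 and 0.693, against 0.655 and 0.634. For GGACT they were 0.616 and 0.603, against 0.651 and 0.633. With positions of at least 50 reads the gap widened, to 0.586 for high sites against 0.675.

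Position along the transcript was not used by the rule either. The median position of high sites was 1086 nt from the transcript's first base (quartiles 566 and 1698, range 46 to 8515), and that of the comparison sites 1102 nt (630 and 1760). High sites at GGACT lay at a median of 1126 nt against 1144, those at GGACC at 908 against 1027 and those at AGACT at 1213 against 1147. All 3 differences are small beside the quartile range. With at least 50 reads, the medians were 699 for high sites and 883 for comparison sites, so the closeness of the medians at 20 reads did not carry over to the deeper sites. The files give no transcript lengths or coding regions, so placement in coding sequence or untranslated regions was not analysed here.

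**Figure D3:**
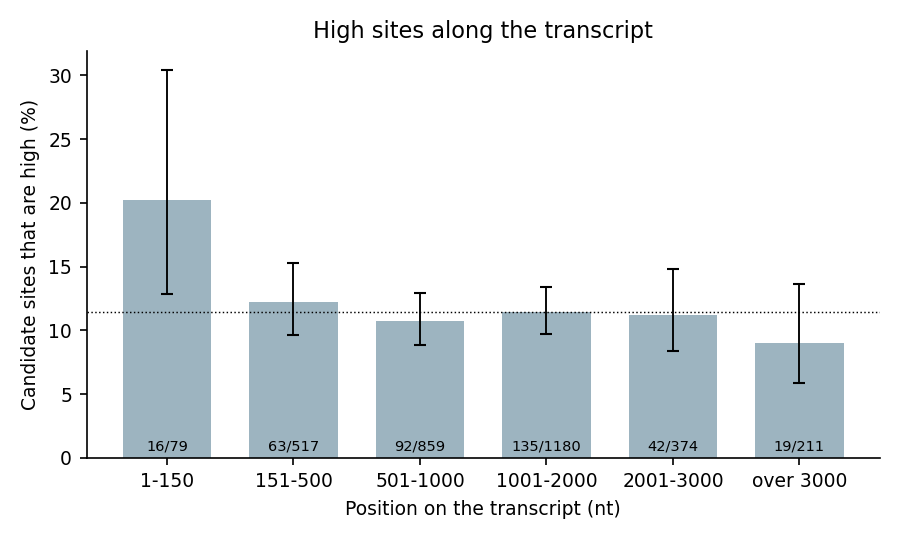
Percent of candidate sites that are high (bars, y axis) by position on the transcript in nt (x axis), with Wilson 95% intervals, the number of high and candidate sites in each bar, and the 11.4% of all candidates dotted. The first class, 16 of 79 sites, stands at 20.3%, and the other 5 classes lie between 9.0 and 12.2%.

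By class of position, the highest share was in the first 150 nt, where 16 of 79 candidate sites were high (20.3%, 12.9 to 30.4%). It was 63 of 517 (12.2%) from there to 500 nt, 92 of 859 (10.7%) to 1000 nt, 135 of 1180 (11.4%) to 2000 nt, 42 of 374 (11.2%) to 3000 nt and 19 of 211 (9.0%, 5.84 to 13.6%) beyond. Beside the background of 11.4%, the first class alone had an interval that did not include it. Split by motif, its share was 4 of 15 at GGACT, 7 of 45 at GGACC and 5 of 19 at AGACT. The 16 sites included Med30 and Psmc1, an ATPase of the proteasome base, at position 46 (Psmc1 0.839 and 0.898), Pebp1, a kinase inhibitor protein, at position 48 (0.920 and 0.935), and Taf10, a subunit of TFIID, at position 70 (0.849 and 0.912). They also included Rps2 position 113 and Rpl11 position 137, with over 1000 reads each. Gm10036 and Gm10288, both predicted genes, shared position 97 at AGACT, with 0.722 and 0.828 in the first and 0.808 and 0.825 in the second. Whether reads of a common source were shared between them, or with another gene, was not tested. The share in the first 150 nt was not recalculated without predicted genes, and its interval started at 12.9%, close to 11.4%.

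At the far end, the site was the last listed position of its transcript for 107 high sites (29.2%) and for 31.0% of comparison sites. By motif the shares were 35.2% against 33.0% at GGACT, 16.7% (17 of 102) against 26.6% at GGACC, and 31.4% against 34.6% at AGACT. Coverage at high sites was at a median of 98.1% and 98.6% of the highest listed on the same transcript, against 99% and 98.8% for comparison sites. The site farthest along was that of Cbx5, a heterochromatin protein, at position 8515 (0.965 and 0.941, 67 and 146 reads).

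The gene lists below were chosen with earlier results of these data known, and they overlap. In each, the count of high sites stands beside the 11.4% of all candidates as a description, and the list's median fraction beside the 0.250 and 0.240 of all candidates in replicates 1 and 2. In all, 152 of the 1274 candidates in a gene of at least 1 list were high (11.9%), near the share of all candidates. Most lists are small, and the share of 23 of 33 moved by over 1.5 times under at least 1 other coverage minimum or threshold.

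Eye-field and retinal progenitor genes had 3 high sites among 19 candidates in 6 genes (15.8%, 5.52 to 37.6%), and the list's median was 0.241 and 0.189. Rax, the homeobox gene that the reporter line follows (chr18:66061348-66072858), had 0.727 and 0.686 at GGACC position 167 with 61 and 80 reads. Its other GGACC site, at position 975, had 0.227 and 0.235. Six6, a homeobox gene of the eye field (chr12:72986666-72991673), had 0.727 and 0.670 at GGACT position 663, and its 4 other candidate sites lay between 0.117 and 0.495. Sox2, the neural progenitor and pluripotency factor (chr3:34704554-34706610), had 0.838 and 0.804 at GGACT position 1192. A GGACT only 15 nt downstream, at position 1207, had 0.120 and 0.0744 on the same depth. At the motifs not ending in A, each of the 3 genes had 1 high site among lower ones. At GGACA, Rax had 0.981 and 0.960 at position 138 and 0.850 and 0.853 at position 1196, both above its high GGACC site, but 0.300 and 0.250 at position 1411. At a threshold of 0.7 the list's share was 5.26%.

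**Figure D4:**
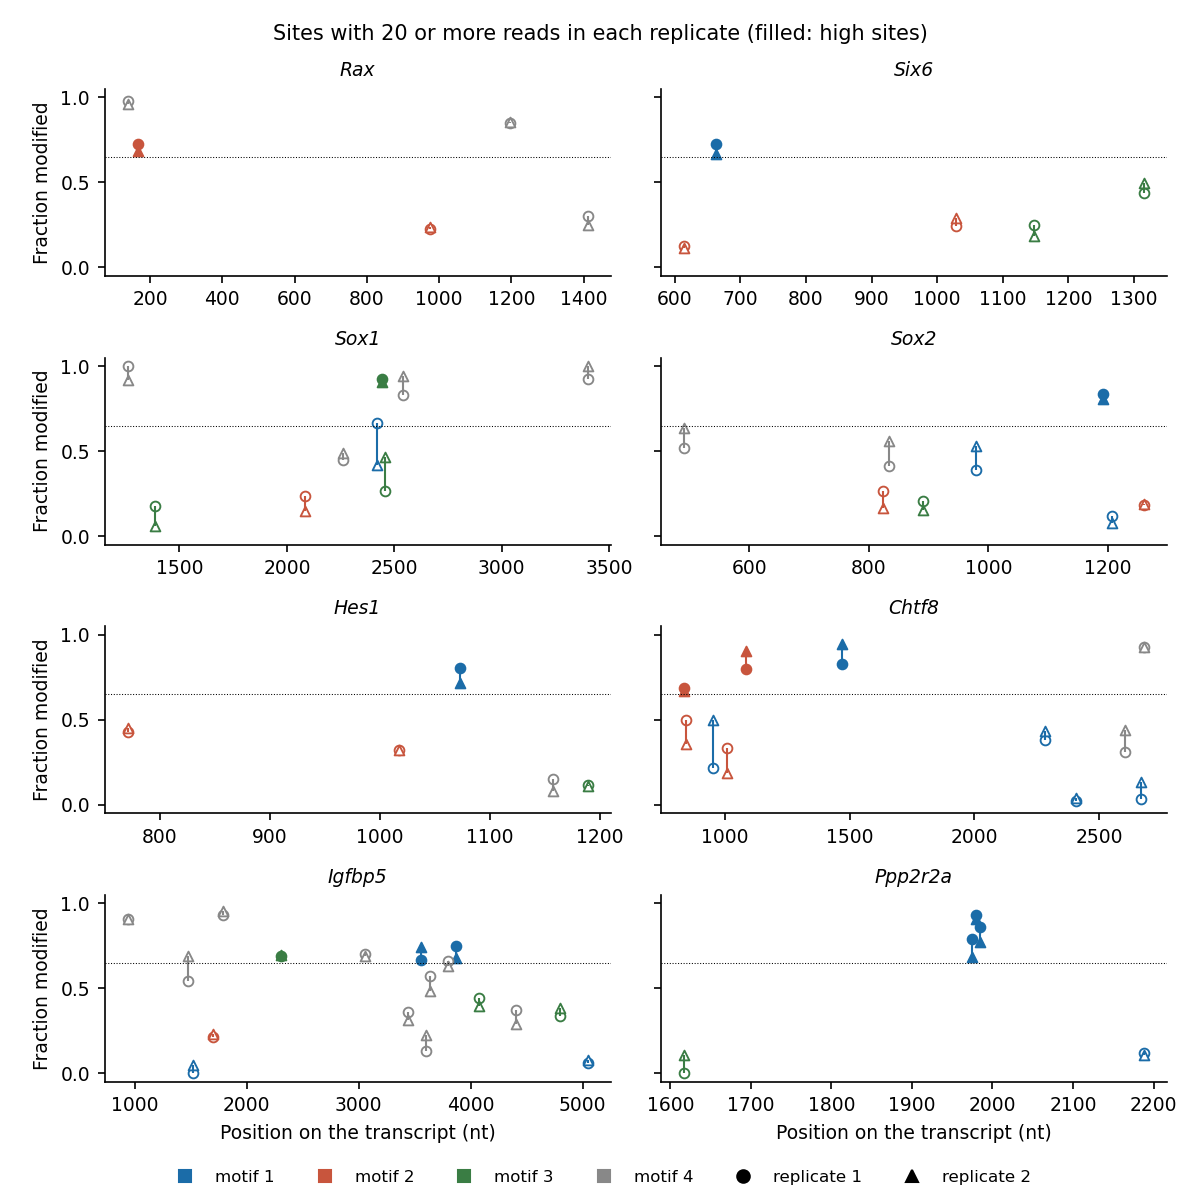
Fraction modified (y axis) at each site with 20 or more reads in each replicate against its position in nt (x axis) for 8 genes, with circles for replicate 1, triangles for replicate 2, filled symbols for high sites and colours for motifs 1 (GGACT), 2 (GGACC), 3 (AGACT) and 4 (GGACA). Rax, Six6, Sox1, Sox2 and Hes1 each have 1 filled site among open ones, and Chtf8, Igfbp5 and Ppp2r2a have 3.

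Among the Sox factors, 2 of 20 candidates were high (10%). Besides Sox2, Sox1, a marker of neural progenitors (chr8:12445295-12450126), had 0.923 and 0.909 at AGACT position 2442 with 37 and 102 reads. The AGACT 13 nt further on, at position 2455, had 0.267 and 0.466. Homeobox factors had 4 of 21 (19%, 7.67 to 40%), and 9.52% at a threshold of 0.7. Beside Rax and Six6 these were Vax2, a ventral eye gene, at GGACT position 804 (0.760 and 0.868), and Hmx1 at GGACT position 1139 (0.882 and 0.714). At Hmx1 the libraries differed by more than its mean exceeded the threshold.

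Hes1, a repressor switched on by Notch signalling (chr16:29883202-29886614), held the only high site of the Notch list, 1 of 4. At GGACT position 1073 it had 0.807 and 0.717 with 147 and 265 reads, while its candidate sites at positions 771, 1018 and 1189 lay between 0.110 and 0.453. Basic helix-loop-helix factors and Id inhibitors had 6 of 26 (23.1%, 11 to 42.1%), with list medians of 0.295 and 0.313. Id2, which blocks the DNA binding of such factors, had 0.918 and 0.928 at GGACT position 1203 and 0.7 and 0.679 at AGACT position 1270 of 1 transcript, and 0.9 and 1.000 at GGACT position 506 of another. The Id2 sites at 1203 and 506 each lay 67 nt from an AGACT site and 484 nt before the last listed position. They may be the same adenosine on both isoforms, which was not tested. Id3, a relative of Id2, had 0.791 and 0.746 at AGACT position 1017 with 187 and 318 reads. Tcf3, a partner of these factors, had 0.895 and 0.796 at GGACT position 2656. None of the 6 lay at GGACC.

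The FGF, BMP, IGF and Hedgehog list had 8 of 33 (24.2%, 12.8 to 41.0%), although its medians, 0.235 and 0.228, were near those of all candidates. All 8 sites were those of Id2, Id3, Igfbp5 and Igfbp2, so 4 genes gave the whole count, with the isoforms of Id2 counted apart. Igfbp2 had 0.800 and 0.790 at GGACC position 691. The list's interval started above 11.4%, and its share was 12.1% at a threshold of 0.7 and 40% at 50 reads. In the Wnt list 0 of 16 candidates were high, which allows a share of up to 18.8% (a limit of 3 sites, for counting error only), and its medians were 0.200 and 0.264. Immediate-early and short-lived messages had 3 of 14 (21.4%), on medians of 0.534 and 0.617 that were above those of all candidates, but the share was 35.7% at a threshold of 0.6 and 0% at 50 reads. Ier2 had 0.824 and 0.800 at GGACT position 504 and 0.889 and 0.885 at GGACT position 951, and Jund, an AP-1 subunit, 0.946 and 0.891 at GGACT position 1162. The site without a gene name repeated Jund's position, its motif and the 27 nt to its nearest listed site, with 0.833 and 0.859, and whether it holds reads of Jund was not tested.

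**Figure D5:**
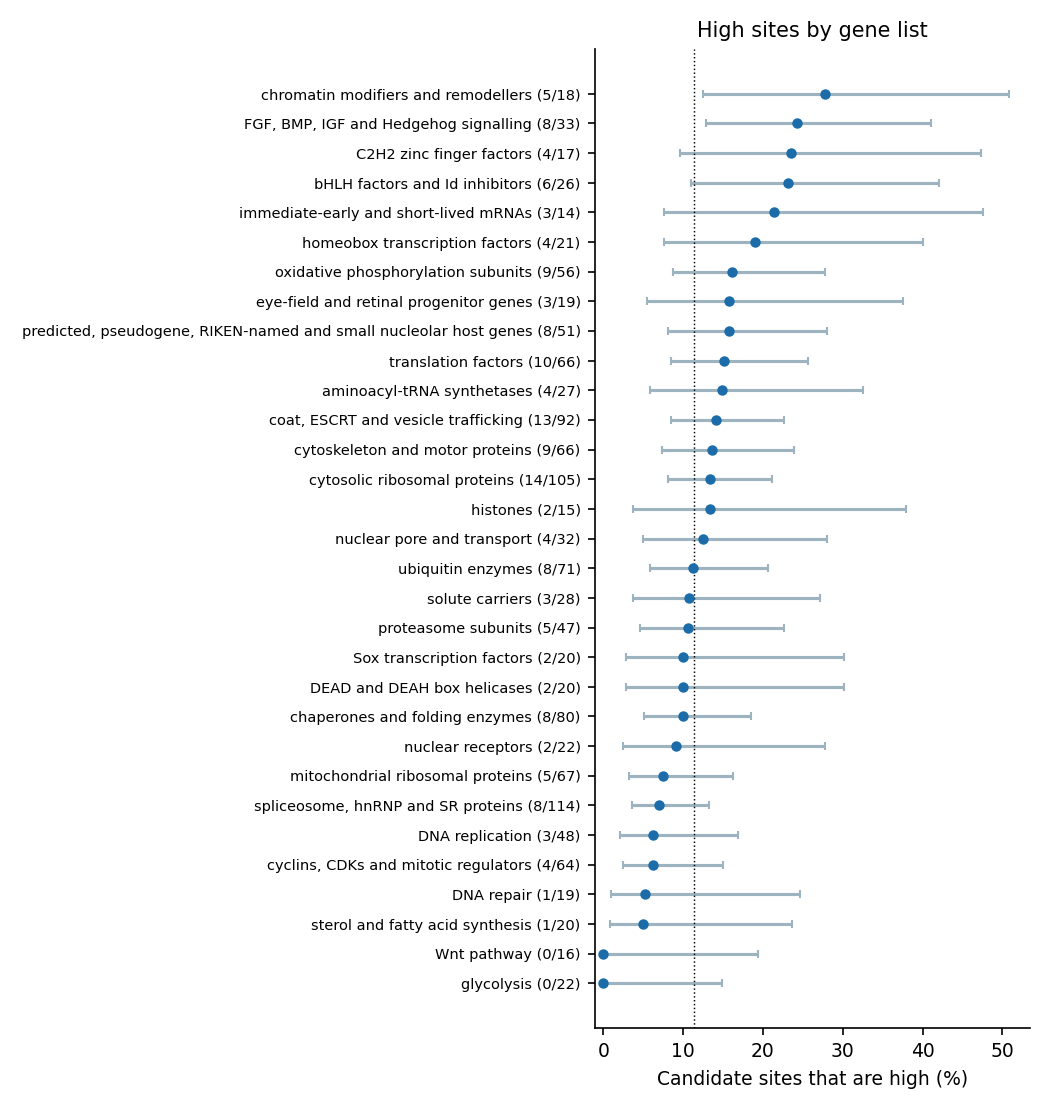
Percent of a list's candidate sites that are high (x axis) for the 31 gene lists with 10 or more candidates (y axis, with high and candidate sites in brackets), as points with Wilson 95% intervals and the 11.4% of all candidates dotted. Most intervals include the dotted line, and the 2 topmost lists, chromatin at 27.8% (17.6% with 10 reads) and growth factor signalling at 24.2% (12.1% at a threshold of 0.7), lie above it.

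Of the m6A machinery itself, 1 of 8 candidates was high, and none at 50 reads. Wtap, the adaptor of the writer complex, had 0.929 and 0.871 at GGACT position 1156 with 21 and 49 reads. Chromatin modifiers and remodellers had 5 of only 18 candidates (27.8%, 12.5 to 50.9%), with medians of 0.418 and 0.414. With at least 10 reads the share was 17.6%, beside 11.2% of all candidates there. Cbx1, a relative of Cbx5, had 1.000 and 0.917 at GGACC position 743 and 0.824 and 0.955 at GGACT position 830, on 20 and 26 reads. Ino80e, of the INO80 remodelling complex, had 0.957 and 0.976 at GGACC position 579. Hdac1 had 1.000 in both libraries at GGACC position 1837, with 26 and 48 reads. Its copy Hdac1-ps showed the same reading with more reads, and how reads were divided within the pair was not tested.

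Ribosomal protein genes of the cytosol had 14 of 105 (13.3%, 8.11 to 21.1%) in 9 genes. Rps2 had 0.759 and 0.713 at GGACC position 113 with 1894 and 3355 reads, and Rps4x 0.849 and 0.891 at GGACC position 327. Rpl24, a protein of the large subunit, had 0.770 and 0.764 at GGACT position 314. Rpl11 had 0.793 and 0.760 at AGACT position 137, and Rpl19 0.665 and 0.667 at AGACT position 622, just over the threshold on 1105 and 1713 reads. Of the 14, 3 were at GGACT, 5 at GGACC and 6 at AGACT, with isoforms of a gene counted apart. These genes have many processed copies, so how the reads were assigned is uncertain. Mitochondrial ribosomal proteins had 5 of 67 (7.46%, but 11.5% at 10 reads and 4.35% at 50 reads), with Mrpl51 at 0.865 and 0.844 and Mrpl27 at 0.778 and 0.721.

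Subunits of the respiratory chain had 9 of 56 (16.1%, 8.69 to 27.8%), 5 at GGACT and 4 at GGACC, and the share was 10.7% at a threshold of 0.7 and 24.3% at 50 reads. Besides Ndufa2 and Ndufa12, the complex I subunits Ndufa7 (GGACT position 446, 0.907 and 0.926) and Ndufc1 (GGACT position 194, 0.878 and 0.833) were high. Cox4i1 of cytochrome c oxidase had 0.809 and 0.838 at GGACT position 618. Sdhb of complex II had 0.676 and 0.787 at GGACC position 352 and 0.660 and 0.761 at GGACC position 416, both near the threshold. Glycolysis genes had 0 of 22, which allows up to 13.6%, with medians of 0.190 and 0.171.

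Translation factors had 10 of 66 (15.2%, and 9.09% at a threshold of 0.7) in 5 genes, 4 of the 10 being the Eif5a isoforms. Proteasome subunits had 5 of 47 (10.6%), all at GGACT. Of these, 3 were the Psmd8 sites described with the isoforms, and the others were Psmc1 and Psmd14, the deubiquitinase of the lid, with 0.674 and 0.697 at position 352. Ubiquitin enzymes had 8 of 71 (11.3%), among them Ube2d3, a conjugating enzyme, with 0.905 and 0.871 at GGACC position 382. Chaperones and folding enzymes had 8 of 80 (10%). Calr, a lectin chaperone of the endoplasmic reticulum, had 0.955 and 0.979 at GGACT position 1417, and Pdia3, a disulfide isomerase, 0.756 and 0.788 at GGACC position 664. At 50 reads the share was 3.85% for the proteasome and 4.55% for the ubiquitin enzymes, beside 10.7% of all candidates there.

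Splicing factors had 8 of 114 (7.02%, 3.6 to 13.2%). Snrpb, an Sm core protein, had 0.701 and 0.714 at GGACC position 906, and Sf3b5, of the U2 particle, 0.676 and 0.783 at AGACT position 3672. Ptbp1, a splicing repressor of progenitor cells, had 0.857 and 0.902 at GGACT position 1366 of 1 transcript and 0.800 and 0.924 at position 1646 of another. Cell cycle regulators had 4 of 64 (6.25%). Plk1, a mitotic kinase, had 0.838 and 0.787 at GGACT position 1933, and Ccnd1, cyclin D1, 0.95 and 0.865 at GGACC position 3493. DNA replication genes had 3 of 48 (6.25%), with the clamp loader subunits Rfc3 (GGACT position 1141, 0.944 and 0.958) and Rfc5 (GGACC position 1473, 0.852 and 0.905). The intervals of all 3 lists included 11.4%.

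Vesicle trafficking genes had 13 of 92 (14.1%, 8.45 to 22.7%), and 4.35% at 50 reads. Arf6, a small GTPase, had 0.944 and 0.902 at GGACC position 919 and 0.800 and 0.742 at GGACC position 786, and Sec11a, of the signal peptidase, 0.696 and 0.793 at GGACT position 1069. Cytoskeletal genes had 9 of 66 (13.6%), with Actg1, gamma actin, at 0.754 and 0.752 (GGACT position 586, 638 and 1475 reads) and Dynll1, a dynein light chain, at 0.850 and 0.837. The near copies Dynlt1b, Dynlt1c and Dynlt1f contributed 3 of the 9, all at GGACT, with 0.706 to 0.744 in replicate 1 and 0.737 to 0.835 in replicate 2. Nuclear transport genes had 4 of 32 (12.5%, and 6.25% at a threshold of 0.7), including the importins Ipo5 (0.702 and 0.657) and Ipo4 (0.733 and 0.667). C2H2 zinc finger factors had 4 of 17, led by Zfp385a with 1.000 in both libraries at GGACT position 2178. Solute carriers had 3 of 28 and aminoacyl-tRNA synthetases 4 of 27. At 50 reads the shares of the zinc finger factors, solute carriers and synthetases were each 0%. Nr2f6 held the 2 of 22 of the nuclear receptors, both on 29 reads in replicate 1, so neither counts at 50 reads. H2az1 held the 2 of 15 of the histones. DEAD and DEAH box helicases had 2 of 20, sterol and fatty acid synthesis 1 of 20 and DNA repair 1 of 19. Predicted, pseudogene and RIKEN-named genes had 8 of 51 (15.7%, but 9.02% at 10 reads and 5.88% at 50 reads). The intervals of the lists from vesicle trafficking on included 11.4%.

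Isoforms of a gene offer a reading of what may be the same adenosine in reads assigned to different transcripts. In 18 pairs of gene and motif, high sites of the same motif lay on several transcripts, 40 sites in all. Copies of a site below the threshold on another isoform are not among them, so the rule caps the range. The median range within a pair was 0.0574 in replicate 1 and 0.0551 in replicate 2, and the widest were 0.156 and 0.162. Psmd8, a subunit of the proteasome lid, had 1.000 in both libraries at positions 1199 and 1348 of a pair of isoforms, and 1.000 and 0.966 at position 1320 of a further one. Tpm3, a tropomyosin, had 1.000 and 0.981 at GGACC position 909 and 0.963 and 1.000 at position 911. Eif5a had 0.823 and 0.774 at GGACC position 1148 with 449 and 751 reads, and between 0.667 and 0.829 on its 3 shallower isoforms. Serbp1, an mRNA-binding protein, had 0.786 and 0.774, 0.682 and 0.732, and 0.792 and 0.799 at GGACT on 3 isoforms. The genomic position of each site was not available to show that isoforms share it. Such sites are not independent, and counting 1 transcript per gene left 342 sites in 299 genes.

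The high sites were spread over the autosomes and chromosome X. Chromosomes 7 and 11 had the most, 34 each, of 214 and 316 candidates. The share of candidates ran from 4.93% on chromosome 6 (7 of 142) to 19.3% on chromosome 16 (21 of 109). Neither of the 2 mitochondrial candidates was high.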

How the data were processed

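Per the labels' protocols, 1 library per sample was made from poly(A) RNA with direct RNA chemistry. The authors deposited, for each library, tables of transcript positions at 4 motifs with a fraction modified (a fraction from 0 to 1, whose denominator is not given) and a coverage, which is a whole-number count of reads. Within the rounding of a fraction to 4 decimals, which lets deep positions pass more easily, it is a whole multiple of 1 over the coverage at 39.4% and 36% of the positions of replicates 1 and 2, so coverage may not give the number of reads behind it. The plus tables were used. The submitters' processing notes name mm10, and the deposited gene intervals are of another build. The base caller, aligner and modification caller are not given in the sources used here.

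Positions were matched between libraries by transcript version and end. The members and the gene lists were chosen with earlier results of these data known. Comparison sites were the candidate sites outside the set, weighted to its coverage classes (20-29, 30-49, 50-99 and 100 or more reads, by the lower library). Shares have Wilson 95% intervals. No test was run, since sites are not replicates. Sites named singly were those of the 8 genes with most high sites on 1 transcript, the 3 with the highest fraction (at least 50 reads) and the 3 deepest of each motif, members of the eye-field, m6A, Notch and Sox lists, the 2 deepest of other lists with 3 or more, and the 3 on either side of the threshold. A few sites that meet this rule are not reported here. Other named sites were chosen after their values were seen. The weighting was tested on simulated data. Python 3.11.15, pandas 2.3.3 and NumPy 2.4.6 were used. Alternatives were other coverage minimums, thresholds, neighbour distances and weightings, 1 transcript per gene, each library alone and, added after seeing the data, the set without predicted genes and near copies.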

Additional observations from a re-analysis of the deposited data

How the results depend on the processing

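No paired analysis was possible because the libraries form a single group. The number of high sites followed the depth required: 771 sites in 618 genes with at least 10 reads in each library, and 119 sites in 104 genes with at least 50. Among the positions listed in both libraries, with depth and fraction judged in 1 library alone, the number was 471 to 1010 sites in 377 to 778 genes, the upper end coming without replicate 1, since replicate 2 is deeper. Their share of candidates was 13.3 to 14.6% in 1 library alone, 13.6% at a threshold of 0.6, 9.41% at 0.7 and 13.3% with the mean of both libraries at 0.65 or more. The share at GGACC fell to 21.8% at 50 reads. The motif shares judged in 1 library were 46.3 to 47.4% at GGACT, 27.2 to 32.1% at GGACC and 21.6 to 25.5% at AGACT. The median position of high sites was 1258 at 10 reads, where that of comparison sites was 1243, and 699 at 50 reads, where that of comparison sites was 883. A neighbour within 20 nt was found for 6.72% of high sites and 6.99% of comparison sites at 50 reads, and for 13.4 and 11% at 10 reads. Within 10 nt it was 6.54 and 4.0%, and within 50 nt 27.5 and 25.6%. GGACA on the transcripts of high sites was 0.616 at 10 reads, 0.586 at 50 reads and 0.611 at a threshold of 0.7, against 0.658, 0.675 and 0.655 for comparison sites. Of 33 gene lists, 11 left their interval at 50 reads and 2 at a threshold of 0.7. The causes of these shifts were not tested. Without predicted genes and near copies, 353 sites remained. With 20 reads a fraction cannot be placed finely, and the unknown denominator leaves the error of a single fraction unstated.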
